A study of Homo sapiens with 16 samples.

Results

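Unstimulated macrophages that were grown with mesenchymal stem cells are described here across all genes. The comparison sets the 4 libraries labelled M0+iMSC against the 4 labelled M0, 8 of the 16 libraries of the series, and the groups come from the labels alone. M0 stands for macrophages made from THP-1, a human monocytic leukaemia line, with the phorbol ester PMA at 100 ng/mL for 48 hours. In M0+iMSC the same macrophages shared a well for 48 hours with iMSCs, mesenchymal stem cells made in culture from induced pluripotent cells, which sat in the upper chamber of a Transwell insert. Neither group received lipopolysaccharide (LPS) or interferon-gamma (IFNg); the remaining 8 libraries, labelled M0+LPS/IFNg without iMSCs and M0+LPS/IFNg+iMSC with them, received Porphyromonas gingivalis LPS at 100 ng/mL and IFNg at 20 ng/mL for 48 hours and enter the estimate of the spread, the choice of genes tested, the mean level used to pick the largest changes, and the closing comparison.

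Several features limit the model. All cells derive from 1 leukaemia line, and the labels call its source peripheral blood and its cell type monocyte. The label of M0 names the PMA step alone, while that of M0+iMSC names a further 48 hours; the series' text gives 48 hours for the whole design, and a difference in time after PMA cannot be told apart from co-culture. The count columns of the co-culture libraries carry the letters CM, which the labels do not explain. Whether replicates were independent cultures is not stated, and a p-value then reflects only how these libraries vary, which may be technical.

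Monocytes exposed to PMA stop dividing, attach and turn on macrophage genes, and THP-1 cells treated in this way are a common stand-in for tissue macrophages. Mesenchymal stem cells release soluble mediators, prostaglandin E2 and TSG-6 among the best known, that alter the cytokines macrophages make. A porous insert lets such mediators pass while keeping most cells apart. The question is which macrophage genes differ after such exposure when no inflammatory stimulus is given.

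The difference was broad. Of 15301 genes tested with edgeR's quasi-likelihood test, 10679 passed a Benjamini-Hochberg adjusted p of 0.05, which is 69.8%. Expression was higher in M0+iMSC in 5543 genes (36.2%) and lower in 5136 (33.6%). A rise of at least 2-fold was fitted for 2622 genes (17.1%) and a fall of at least 2-fold for 1451 (9.48%). In 10563 genes (69%) the ranges of the M0 and M0+iMSC libraries were apart. The median difference over all tested genes was 0.03 on the log2 scale, and 0.17 when libraries were scaled by their totals alone; with such shares a count within a gene list is to be read beside them. Levels are given below as CPM (counts scaled to library size, with TMM factors), and differences as log2 of M0+iMSC over M0 with an approximate standard error (SE).

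**Figure D1:**
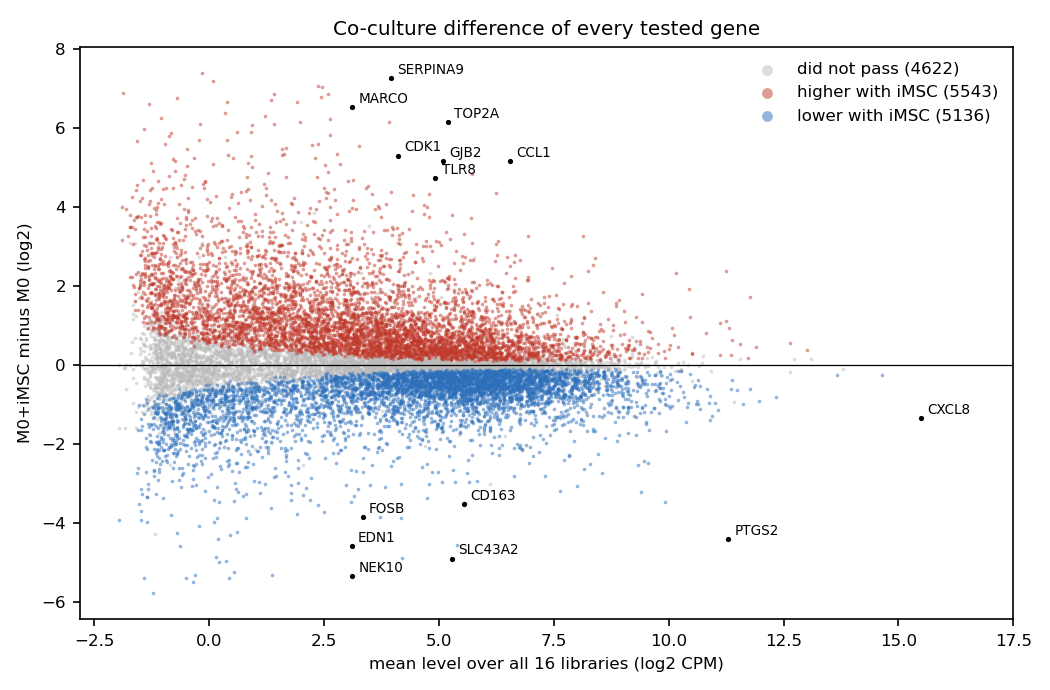
Each point is 1 of the 15301 tested genes, placed by its mean level over all 16 libraries (log2 CPM, horizontal axis) and its difference between M0+iMSC and M0 (log2, vertical axis). Red points (5543 genes) were higher and blue points (5136 genes) lower at an adjusted p under 0.05, and grey points did not pass; labelled genes span both ends, from SERPINA9 to NEK10.

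Library totals were 20338546 to 24149246 counts in M0 and 17336637 to 23806909 in M0+iMSC, and 15301 genes held at least 99.9% of the counts of each. Mitochondrial transcripts took 2.99% to 3.34% of counts in M0 and 3.88% to 4.10% in M0+iMSC, and ribosomal protein genes 2.70% to 2.77% and 2.91% to 3.49%. The first principal component of the 8 libraries held 86% of the variance and separated the groups. The second held 4.6% and placed M0+iMSC replicates 1 and 2 on one side and replicates 3 and 4 on the other. Pairs of libraries within M0 differed by a chi-square of 1.97 to 3.17 per gene, where counting noise alone gives about 1. M0+iMSC replicates 1 and 2 differed by 5.31, replicates 3 and 4 by 3.52, and libraries of different pairs by 11.3 to 21.2. No library was a copy of another, and results are given below with each pair where the pairs differ.

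Macrophage markers were present in both groups. The 14 tested genes of a list of macrophage defining markers summed to 5470 to 5840 CPM in M0 and 5710 to 6170 CPM in M0+iMSC. Within the list CD14, the LPS co-receptor, rose from 127 ± 3.70 (SD, n = 4) to 268 ± 31.7 CPM, and ITGAM, the integrin chain CD11b, from 196 ± 6.17 to 388 ± 66.5 CPM. CSF1R, the receptor for the growth factor that maintains macrophages, fell from 570 ± 21.1 to 269 ± 36.0 CPM, and the lysosomal membrane gene LAPTM5 fell from 1815 ± 45.8 to 925 ± 116 CPM. In all, 4 rose and 4 fell (7 fell in a fit of the 8 libraries alone), beside 36.2% and 33.6% of all genes. CD68, a usual macrophage marker, held 17 counts over the M0 libraries and 12 over M0+iMSC; its span overlaps 2 other annotated genes, 1 of them on its own strand, so its level was not read.

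Markers of the cells in the insert were looked at in the same libraries. Of 23 mesenchymal stromal markers 18 were tested, 9 rose and 4 fell (2 fell without M0+iMSC replicates 3 and 4), with a median of 0.81, and their summed level was 1980 to 2030 CPM in M0 and 1900 to 2180 CPM in M0+iMSC. The defining collagen gene COL1A2 was at 0 counts in both groups, COL3A1 held 1 count in M0 and 0 in M0+iMSC, and THY1 0 and 2. COL1A1, the partner chain of COL1A2 in type I collagen, rose from 1.67 ± 0.331 to 6.16 ± 1.98 CPM. PDGFRA, a growth factor receptor of stromal cells, stood at 82.1, 77.7, 79.8 and 83.2 CPM in M0 and at 536, 510, 390 and 325 CPM in M0+iMSC, all above M0. PRRX1, a mesenchymal transcription factor, rose from 15.8 ± 0.409 to 61.4 ± 5.52 CPM, FAP, a stromal surface protease, from 17.9 ± 1.01 to 43.6 ± 8.76 CPM, and COL6A3 from 13.8 ± 1.00 to 282 ± 8.08 CPM, while NT5E, which makes adenosine at the cell surface, fell from 1279 ± 25.6 to 557 ± 63.1 CPM and makes up much of the summed level in M0. DCN, a proteoglycan of stromal cells, held 0 counts over the M0 libraries and 69 over M0+iMSC. TWIST1, also among the defining markers, fell, as did FBN1 and SFRP1, at -1.44, -0.79 and -0.72 on the log2 scale. PDGFRB, a further defining marker, rose by 0.96. Among pluripotency markers POU5F1, NANOG and SOX2 were at 0 counts in both groups, and 2 of 11 were tested. DNMT3B, a DNA methyltransferase, stood at 0.174 ± 0.0665 CPM in M0 and 0.382 ± 0.110 CPM in M0+iMSC (adjusted p = 0.0202), and SALL4, a stem cell factor, at 2.17 ± 0.160 and 1.55 ± 0.392 CPM (adjusted p = 0.0249). Neither call was stable: that of DNMT3B did not pass without M0+iMSC replicates 1 and 2 (adjusted p = 0.185) and that of SALL4 did not pass without either pair (adjusted p = 0.0512 and 0.0685). Nor did DNMT3B pass without M0 replicate 4 or M0+iMSC replicate 2, or SALL4 without M0 replicate 2, M0 replicate 3 or M0+iMSC replicate 1. Whether RNA of iMSCs entered any of the results below was not tested.

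Genes with the largest rises came from several classes. By a rule that took the 15 largest rises among genes with a mean of at least 3 log2 CPM, an adjusted p under 0.05 and no overlap between groups, 7 were genes of cell division, described below. SERPINA9, a serine protease inhibitor known from germinal centre B cells, stood at 0.299, 0.400, 0.545 and 0.290 CPM in M0 and at 86.8, 85.3, 34.2 and 34.2 CPM in M0+iMSC. Its higher values are those of replicates 1 and 2, and all 4 lie above M0. MARCO, a scavenger receptor for bacteria and particles (chr2:118942194-118994660 on GRCh38), stood at 0.398, 0.250, 0.335 and 0.387 CPM in M0 and at 36.6, 30.9, 29.8 and 30.5 CPM in M0+iMSC, a log2 difference of 6.52 ± 0.18 (adjusted p = 3.80e-14). All 4 M0+iMSC libraries were far above M0, with replicate 1 the highest. The gap junction gene GJB2 rose from 2.85 ± 0.242 to 101 ± 12.0 CPM. CCL1, a chemokine that attracts regulatory and type 2 helper T cells, stood at 7.66, 6.61, 7.00 and 7.21 CPM in M0 and at 324, 364, 172 and 163 CPM in M0+iMSC.

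Among the remaining large rises were genes without a coding product. LINC00659 rose from 1.20 ± 0.177 to 31.1 ± 12.6 CPM, and here replicates 3 and 4 (41.9 and 42.0 CPM) lay above 1 and 2 (20.8 and 19.6 CPM). A long noncoding gene with no symbol, ENSG00000256234 on chromosome 12, rose from 0.666 ± 0.141 to 31.8 ± 5.38 CPM; its span overlaps the coding genes SSPN and ITPR2, and reads of such partners may not be separable. The pseudogene EPS15P1 rose from 1.52 ± 0.305 to 35.3 ± 4.38 CPM.

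The 15 largest falls held transporters, enzymes, receptors and secreted proteins. NEK10, a kinase of the NIMA family, stood at 25.4, 23.1, 24.3 and 21.8 CPM in M0 and at 0.715, 1.08, 0.387 and 0.232 CPM in M0+iMSC, a log2 difference of -5.35 ± 0.26. SLC43A2, a carrier of neutral amino acids, fell from 20.1 ± 1.15 to 0.661 ± 0.152 CPM, and GUCY1A2, a subunit of the nitric oxide receptor guanylate cyclase, from 25.6 ± 1.21 to 0.867 ± 0.300 CPM. EDN1, which encodes endothelin, fell from 12.6 ± 0.489 to 0.540 ± 0.310 CPM. TDO2, an enzyme that opens the ring of tryptophan, was abundant in M0 (833, 823, 851 and 881 CPM) and stood at 80.7, 107, 57.0 and 59.9 CPM in M0+iMSC. RAB7B, a small GTPase of late endosomes, fell from 61.1 ± 2.82 to 5.44 ± 0.966 CPM and CD300A, an inhibitory receptor, from 6.24 ± 0.893 to 0.568 ± 0.127 CPM. The noncoding genes LINC02223 and LYPLAL1-AS1 fell from 11.8 ± 0.371 to 0.823 ± 0.305 and from 21.8 ± 0.568 to 2.14 ± 0.957 CPM. For each of these falls the 4 M0+iMSC libraries lay below every M0 library, which the rule required.

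Genes of cell division rose together. A dividing cell first licenses and copies its DNA and then assembles a spindle that separates the copies, and each step has its own genes. Of 38 tested mitosis and spindle genes, 36 rose and 1 fell, with a median log2 difference of 3.43 where the median of all genes was 0.03. Their summed level was 277 to 285 CPM in M0 and 515 to 824 CPM in M0+iMSC. The gene that fell was the checkpoint gene BUB3, from 151 ± 1.64 to 112 ± 6.11 CPM. The list member PRC1 held 0 and 5 counts and was not tested; its span overlaps another coding gene.

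Promoter sequence of CDK1 and TOP2A is printed because mitosis genes are known to share short promoter elements, the CHR element (TTTGAA) and the CCAAT box. The windows are RefSeq's (GRCh38.p14) and hold the 250 bases before a transcription start, 5′ to 3′; capitals mark, on either strand, the CHR letters TTTGAA, their known variant with the spelling TTTAAA, and the box written CCAAT.
CDK1, chr10:60778228-60778477, + strand: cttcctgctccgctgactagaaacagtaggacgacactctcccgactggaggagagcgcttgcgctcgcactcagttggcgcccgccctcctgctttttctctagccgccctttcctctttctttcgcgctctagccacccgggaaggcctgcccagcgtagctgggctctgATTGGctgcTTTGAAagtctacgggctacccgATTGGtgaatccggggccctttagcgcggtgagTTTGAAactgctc
TOP2A, chr17:40417897-40418146, - strand: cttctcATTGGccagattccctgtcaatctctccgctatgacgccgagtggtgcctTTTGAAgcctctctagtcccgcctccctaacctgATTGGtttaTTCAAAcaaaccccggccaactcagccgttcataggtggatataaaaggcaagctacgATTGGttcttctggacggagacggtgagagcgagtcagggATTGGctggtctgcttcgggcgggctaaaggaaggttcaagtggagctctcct
The CDK1 window, the one of its 2 windows with more matches, holds 4 such matches and the TOP2A window 6. Of the 33 mitosis list genes with a window, 23 (69.7%) hold TTTGAA in a window of 300 bases, 12 (36.4%) hold TTTAAA and 25 (75.8%) hold CCAAT. Among all 27305 genes with a window the shares are 18.2%, 14.5% and 39.7%. The printed windows were chosen after matches were counted, for holding several. Of 9 genes of this list that are named here and were searched, KIF2C and NDC80 hold 0 matches in the 250 bases, and CCNA2 and BUB1B hold 1 each. A match is a stretch of letters and was not tested for binding or effect.

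CDK1, the kinase that starts mitosis, stood at 0.398, 0.551, 0.545 and 0.580 CPM in M0 and at 24.5, 29.1, 15.8 and 13.4 CPM in M0+iMSC, a log2 difference of 5.30 ± 0.43 (adjusted p = 6.75e-08). TOP2A, which untangles DNA before chromosomes part, stood at 0.597, 0.851, 0.964 and 0.774 CPM in M0 and at 67.7, 80.7, 40.5 and 40.3 CPM in M0+iMSC. In both genes replicates 1 and 2 were higher than 3 and 4, and all 4 were above M0, which the rule for the largest rises required. CCNA2, the cyclin of S and G2 phase, rose from 0.588 ± 0.144 to 13.0 ± 4.36 CPM, and the kinetochore genes NDC80 and BUB1B rose from 0.158 ± 0.125 to 9.66 ± 4.19 and from 0.389 ± 0.0288 to 9.95 ± 3.32 CPM. The span of BUB1B overlaps a joined transcript with PAK6. The spindle motors KIF2C and KIF4A rose from 0.336 ± 0.122 to 24.8 ± 8.59 and from 0.0946 ± 0.0395 to 7.51 ± 3.32 CPM. The smallest p in the list was that of PTTG1, which encodes securin, an inhibitor of chromatid separation. PTTG1 stood at 2.59, 2.80, 3.35 and 2.51 CPM in M0 and at 14.2, 14.7, 12.1 and 12.5 CPM in M0+iMSC. INCENP, a subunit of the chromosomal passenger complex, was already at 9.58 ± 0.864 CPM in M0 and rose to 20.1 ± 0.707 CPM. PRR11 and MKI67, further genes of dividing cells, rose to 22.1 ± 4.95 and 59.9 ± 21.1 CPM from 1.05 ± 0.243 and 2.10 ± 0.258 CPM.

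Genes that copy DNA rose less. Of 28 replication genes 23 rose and 1 fell (median 1.05). The licensing genes CDC6 and CDT1 rose from 3.12 ± 0.226 to 14.8 ± 1.63 and from 0.507 ± 0.0894 to 3.44 ± 0.619 CPM, the origin subunit ORC6 from 1.14 ± 0.231 to 5.34 ± 0.603 CPM, and the primase subunit PRIM1, whose span overlaps other coding genes, from 1.26 ± 0.395 to 8.06 ± 0.893 CPM. Of the helicase genes, MCM6 and MCM2 rose by 1.28 and 0.53, whereas MCM3, MCM4, MCM5 and MCM7 stood at 0.39, 0.30, 0.06 and 0.19 and did not pass. GINS3, a partner of that helicase, fell from 17.4 ± 0.387 to 7.58 ± 2.10 CPM.

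Genes that supply nucleotides were mixed, 5 up and 5 down of 15, with a median of 0.06, beside 36.2% and 33.6% of all genes. The thymidine kinase gene TK1 rose from 0.293 ± 0.0840 to 4.32 ± 1.82 CPM. The purine and pyrimidine synthesis genes IMPDH2 and CTPS1 fell from 62.1 ± 2.37 to 40.8 ± 2.62 and from 297 ± 3.80 to 119 ± 14.5 CPM.

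Regulators of the cycle moved in both directions. Of 17 G1 cyclins, kinases and related transcription factors 8 rose and 5 fell (median 0.44), and of 14 tested inhibitors 10 rose and 4 fell (median 0.54). Among all genes the shares were 36.2% and 33.6%. FOXM1, the transcription factor of the mitotic programme, rose from 0.238 ± 0.0476 to 4.56 ± 1.41 CPM, E2F1 from 1.29 ± 0.190 to 6.71 ± 2.11 CPM and the G1 cyclin CCND3 from 54.0 ± 2.72 to 145 ± 5.27 CPM. MYC, a growth-promoting factor, went the other way: it stood at 99.5, 105, 97.6 and 101 CPM in M0 and at 29.2, 32.0, 32.1 and 33.4 CPM in M0+iMSC, a log2 difference of -1.67 ± 0.07. CDKN1A, which encodes the inhibitor p21, stood at 1506, 1405, 1422 and 1462 CPM in M0 and at 648, 722, 684 and 767 CPM in M0+iMSC. The inhibitors CDKN1B and RBL2 rose from 14.3 ± 0.414 to 25.3 ± 2.49 and from 68.4 ± 1.51 to 110 ± 2.86 CPM, and the damage-response gene GADD45A from 14.4 ± 1.10 to 20.6 ± 2.16 CPM. CDKN2A and CDKN2B were at 0 counts in all 8 libraries. In bulk RNA a larger share of dividing cells cannot be told apart from more of these RNAs in each cell.

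The size of the division signal depended on the pair. With M0+iMSC replicates 1 and 2 left out the median of the mitosis list was 2.88, and with replicates 3 and 4 left out it was 3.78. For the replication list the medians were 0.76, with 18 genes rising, and 1.13, with 25.

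**Figure D2:**
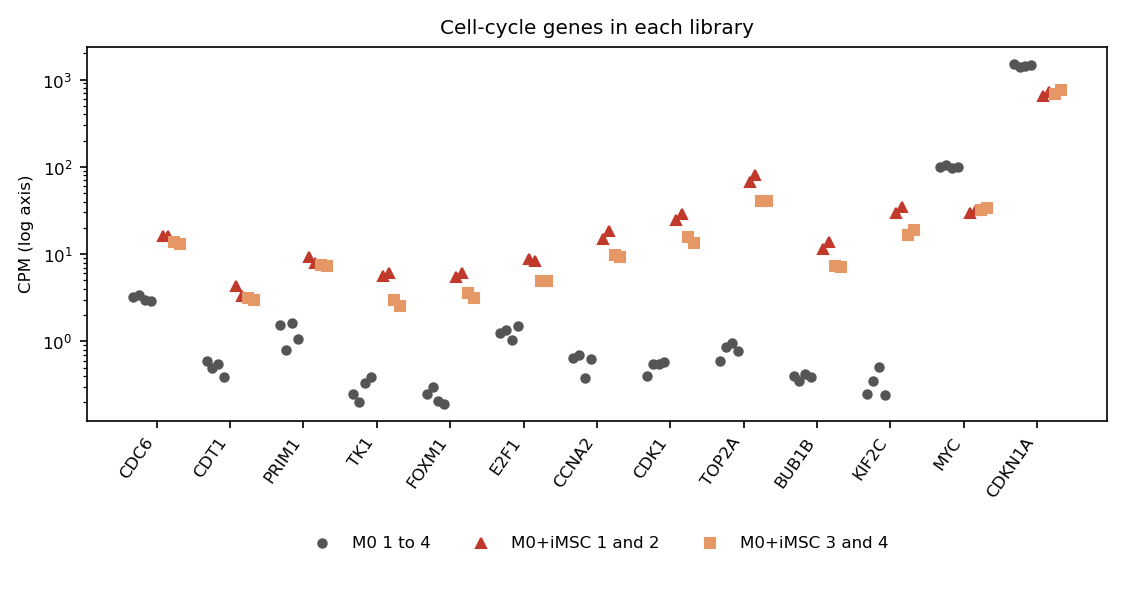
Level in CPM (log axis) of 13 cell-cycle genes in each of the 4 M0 libraries (grey circles) and the 4 M0+iMSC libraries (triangles, replicates 1 and 2; squares, replicates 3 and 4). The genes from CDC6 to KIF2C were higher in every M0+iMSC library, which the rule for the largest rises required of CCNA2, CDK1, TOP2A, BUB1B and KIF2C. Triangles lie above squares for TOP2A and CDK1, and MYC and CDKN1A were lower.

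Genes of NF-kB signalling fell. NF-kB is held in the cytoplasm by IkB proteins until a receptor signals through the IKK kinases, and it then switches on cytokines as well as its own inhibitors. Of 24 tested subunits, inhibitors and targets 19 fell and 2 rose (1 rose when any single library of the 8 was left out), with a median of -0.76. The promoter windows of the target CXCL8, which is counted with the chemokines, and of NFKBIA, which encodes IkB-alpha, show the letters of this factor's site, with capitals marking GGACTTTCC, GGAATTTCC or GGGATTTCC on either strand (RefSeq, GRCh38.p14).
CXCL8, chr4:73740319-73740568, + strand: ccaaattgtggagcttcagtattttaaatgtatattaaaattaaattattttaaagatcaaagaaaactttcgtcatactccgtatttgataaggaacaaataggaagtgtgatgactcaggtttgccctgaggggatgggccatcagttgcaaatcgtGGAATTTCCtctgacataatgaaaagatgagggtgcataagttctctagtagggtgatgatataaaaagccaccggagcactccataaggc
NFKBIA, chr14:35404750-35404999, - strand: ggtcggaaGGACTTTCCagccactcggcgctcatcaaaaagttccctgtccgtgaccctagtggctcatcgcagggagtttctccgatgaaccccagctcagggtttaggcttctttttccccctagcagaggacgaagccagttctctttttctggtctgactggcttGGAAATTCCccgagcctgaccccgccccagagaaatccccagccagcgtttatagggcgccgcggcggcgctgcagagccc
Of the 21 list genes with a window, 11 (52.4%) hold at least 1 of the 3 spellings, compared with 1.48% of all 27305 genes; the list was drawn up from known targets, so this share describes the list and not the co-culture. These windows too were chosen for their matches: IKBKE, TRAF1 and the target PTGS2 hold 0 in the 250 bases. CXCL8 and PTGS2 were lower in M0+iMSC, but signal genes outside this list moved in both directions, with TNF, EBI3 and CCL22 higher.

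CXCL8, the neutrophil attractant (chr4:73740541-73743716 on GRCh38), stood at 40010, 41800, 42800 and 43400 CPM in M0 and at 16750, 19310, 15190 and 15120 CPM in M0+iMSC. NFKBIA stood at 402, 409, 400 and 396 CPM in M0 and at 207, 199, 180 and 175 CPM in M0+iMSC, a log2 difference of -1.08 ± 0.06 (adjusted p = 3.36e-11). The second IkB gene, NFKBIB, fell from 39.5 ± 0.734 to 17.6 ± 0.291 CPM, the kinase gene IKBKE from 43.8 ± 2.26 to 13.2 ± 1.01 CPM and the adaptor gene TRAF1 from 174 ± 2.13 to 47.7 ± 6.41 CPM. REL, a subunit, rose from 33.2 ± 2.54 to 49.1 ± 6.38 CPM. The second riser, TNFAIP3, an enzyme that ends NF-kB signals, stood at 235, 236, 230 and 229 CPM in M0 and at 275, 275, 274 and 285 CPM in M0+iMSC. The groups did not overlap, but its adjusted p was 0.0468 with a log2 difference of 0.26, and it did not pass when any single library of the 8 was left out (adjusted p between 0.0728 and 0.0952).

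Receptors and adaptors above NF-kB were split, with 6 up and 9 down of 20 tested, beside 36.2% and 33.6% of all genes. TLR8, the endosomal receptor for single-stranded RNA, stood at 0.0498, 0, 0.168 and 0.0967 CPM in M0 and at 2.23, 2.16, 2.41 and 2.47 CPM in M0+iMSC. TLR7, its neighbour in function, rose from 0.0370 ± 0.0475 to 0.477 ± 0.329 CPM, both low levels, and NOD2, a sensor of bacterial wall fragments, from 0.453 ± 0.347 to 3.02 ± 0.264 CPM. The signalling kinase IRAK2 fell from 189 ± 3.25 to 44.9 ± 3.80 CPM, whereas IRAK3, which restrains the same pathway, rose from 32.3 ± 1.07 to 69.9 ± 5.78 CPM. TLR4 and MYD88 stood at -0.16 and -0.33 and did not pass, and TLR2 fell by 0.68 on the log2 scale.

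Early-response genes, which cells switch on within minutes of a signal, fell in the main: 21 of 28 fell and 5 rose, with a median of -0.78. The factor KLF6 stood at 377, 422, 397 and 388 CPM in M0 and at 81.5, 85.1, 75.6 and 78.9 CPM in M0+iMSC. The phosphatases DUSP1 and DUSP10, which switch off MAP kinases, fell from 229 ± 7.48 to 32.7 ± 4.58 and from 235 ± 5.04 to 81.8 ± 4.51 CPM, and the AP-1 subunits FOSL2 and FOSB from 342 ± 10.3 to 144 ± 10.9 and from 16.7 ± 0.923 to 1.19 ± 0.619 CPM. A further phosphatase, DUSP2, rose from 8.19 ± 0.810 to 47.0 ± 7.46 CPM. NR4A1, an orphan nuclear receptor, was close to 0, at 0.498, 0.100, 0.251 and 0 CPM in M0 and 0.379, 0.485, 0.473 and 0.619 CPM in M0+iMSC. Its groups overlapped, and its adjusted p of 0.0402 became 0.0575 in a fit of the 8 libraries alone. It was 0.0544 with a replicate block, and 0.0556 and 0.195 without M0+iMSC replicates 1 and 2 or 3 and 4. Nor did NR4A1 pass without M0 replicate 2, 3 or 4 or without M0+iMSC replicate 2, 3 or 4. For the AP-1 and CRE letters TGAGTCA and TGACGTCA, 19% of the 21 list genes with a window hold either, beside 8.18% of all genes; of the 7 named here only DUSP1 holds 1 in the 250 bases before its start, so none is printed.

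**Figure D3:**
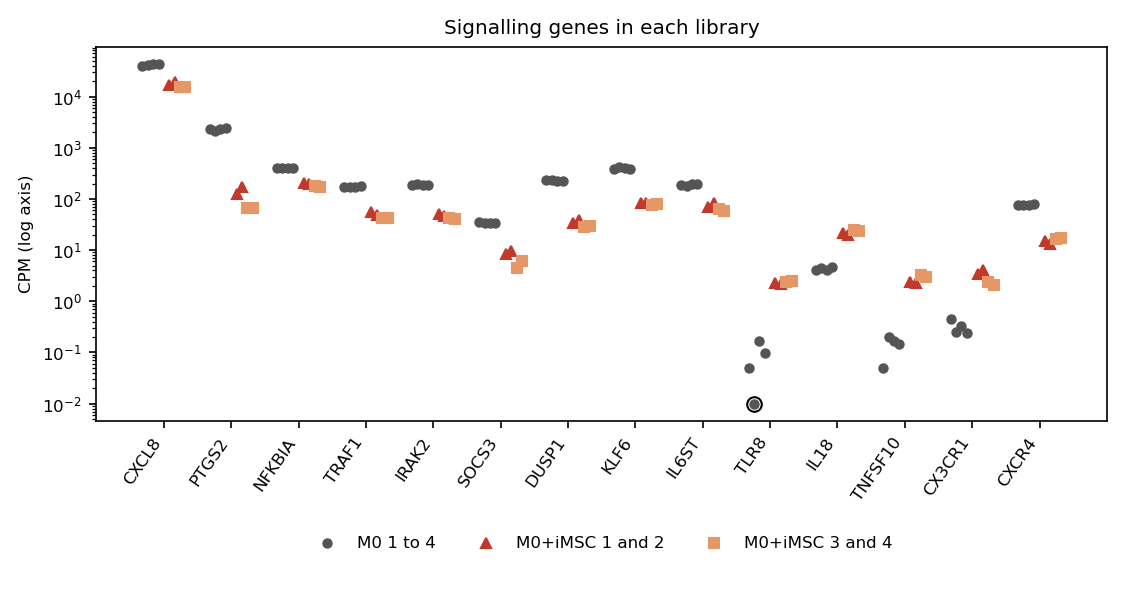
Level in CPM (log axis) of 14 signalling genes in each M0 library (grey circles) and each M0+iMSC library (triangles, replicates 1 and 2; squares, replicates 3 and 4). The groups are separate for every gene, which the rule for the largest changes required of TLR8 and PTGS2. The TLR8 value of 0 CPM in M0 replicate 2 cannot lie on a log axis and is drawn at 0.01 CPM inside an open circle.

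Genes for secreted signals did not move as a block. Of 25 tested chemokine genes 5 rose and 10 fell (median -0.56), and of 26 cytokine and growth factor genes 11 rose and 8 fell (median 0.08). Among all genes the shares were 36.2% and 33.6%. The neutrophil attractants CXCL2 and PPBP fell from 354 ± 14.1 to 141 ± 18.3 and from 65.5 ± 2.05 to 11.7 ± 1.84 CPM, while CXCL5, of the same class, rose from 241 ± 11.8 to 1199 ± 143 CPM. CCL3, a monocyte attractant, fell from 878 ± 18.4 to 164 ± 14.8 CPM, and CXCL12, the ligand of CXCR4, from 11.6 ± 0.562 to 0.999 ± 0.378 CPM. CCL22, an attractant of regulatory T cells, rose from 2.08 ± 0.424 to 8.16 ± 2.30 CPM.

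Among cytokines, IL18, which needs the inflammasome for release, rose from 4.33 ± 0.252 to 22.6 ± 2.38 CPM, EBI3, a subunit of IL-27 and IL-35, from 10.7 ± 0.675 to 37.1 ± 1.52 CPM and VEGFA, the vessel growth factor, from 238 ± 7.45 to 478 ± 19.7 CPM. TNFSF10, the death ligand TRAIL, stood at 0.0498, 0.20, 0.168 and 0.145 CPM in M0 and at 2.40, 2.26, 3.23 and 3.02 CPM in M0+iMSC. CSF3, the granulocyte growth factor, and OSM, oncostatin M, fell from 14.6 ± 0.676 to 1.90 ± 0.430 and from 3.58 ± 0.499 to 0.438 ± 0.0491 CPM. TNF and IL6 went in opposite directions, TNF from 93.4 ± 6.98 to 208 ± 44.1 CPM and IL6 from 26.7 ± 2.40 to 5.85 ± 1.74 CPM.

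Of 23 cytokine receptor and feedback genes 11 fell and 5 rose (median -0.21), beside 33.6% and 36.2% of all genes. By at least 2-fold 4 rose and 3 fell. CSF3R, IL10RA, CISH and IL1R2 rose by 3.4, 2.2, 2.0 and 1.9 on the log2 scale. The 3 genes of IL-6 reception and feedback with the smallest p fell together: IL6ST, the shared signal chain, from 189 ± 6.01 to 68.8 ± 10.4 CPM, IL6R from 344 ± 3.83 to 196 ± 15.2 CPM and SOCS3, the feedback inhibitor, from 34.5 ± 0.324 to 7.18 ± 2.27 CPM. IFNAR1, a chain of the type I interferon receptor, fell from 245 ± 5.56 to 135 ± 6.27 CPM. Of 15 chemoattractant receptor genes 5 rose and 4 fell. CXCR4 stood at 76.7, 77.4, 75.5 and 80.1 CPM in M0 and at 15.2, 13.3, 16.8 and 17.0 CPM in M0+iMSC. ACKR3, the second receptor for CXCL12, rose from 18.9 ± 0.364 to 77.4 ± 17.2 CPM, and CX3CR1, the fractalkine receptor, from 0.319 ± 0.0958 to 2.99 ± 0.950 CPM. C5AR2, a receptor of complement C5a, fell from 84.8 ± 1.44 to 28.3 ± 3.06 CPM.

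Prostaglandin genes moved in both directions. Of 20 tested genes 9 rose and 5 fell (median 0.28), beside 36.2% and 33.6% of all genes. PTGS2, the inducible cyclooxygenase (chr1:186671791-186680922 on GRCh38), stood at 2280, 2121, 2288 and 2382 CPM in M0 and at 123, 175, 65.8 and 65.6 CPM in M0+iMSC, whereas PTGS1, the constitutive form, stood at 178, 180, 172 and 175 CPM in M0 and at 369, 329, 344 and 377 CPM in M0+iMSC. PTGS2 was lower and PTGS1 higher in every M0+iMSC library than in every M0 library. The rule for the largest falls, which took PTGS2, required this, and 69% of all tested genes had groups apart. The receptors for prostaglandin E2 PTGER4 and PTGER3 fell from 452 ± 13.0 to 142 ± 11.3 and from 17.6 ± 0.650 to 1.80 ± 0.936 CPM. PTGR1, which inactivates prostaglandins and leukotriene B4, rose from 10.2 ± 0.332 to 34.2 ± 2.41 CPM and TBXA2R, the thromboxane receptor, from 2.12 ± 0.228 to 8.62 ± 1.08 CPM.

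Surface receptors moved in both directions. Of 20 tested scavenger and lectin receptor genes 4 rose and 5 fell, beside 36.2% and 33.6% of all genes. In the 8-library fit 7 rose. Apart from MARCO, CD209, a lectin of dendritic cells and some macrophages, rose from 10.8 ± 0.710 to 47.9 ± 12.3 CPM. CD36 and OLR1, receptors of oxidized lipoprotein, fell from 180 ± 4.25 to 34.1 ± 3.67 and from 59.9 ± 1.34 to 7.65 ± 0.721 CPM, and CD163, the haemoglobin receptor, from 31.3 ± 0.857 to 2.77 ± 1.14 CPM. STAB1, a receptor that clears apoptotic cells, stood at 0.348, 0.20, 0.0838 and 0.339 CPM in M0 and at 0 in all 4 M0+iMSC libraries. Its adjusted p was 0.0341, and 0.0984 and 0.121 without either pair of M0+iMSC libraries. Nor did STAB1 pass without M0 replicate 1 or 4 or without any single M0+iMSC library. It also failed with a replicate block (adjusted p = 0.0521) and when every gene with a count was tested (adjusted p = 0.103). Of 21 Fc and inhibitory receptor genes 7 rose and 5 fell, 11 rising in the 8-library fit. LILRB1, an inhibitory receptor for MHC class I, and FCGR2B, the inhibitory Fc receptor, rose from 2.80 ± 0.185 to 14.1 ± 1.80 and from 2.57 ± 0.371 to 8.31 ± 2.39 CPM. PILRA and LILRB3, also inhibitory, fell from 15.6 ± 1.52 to 4.76 ± 0.629 and from 6.47 ± 0.452 to 2.25 ± 0.523 CPM.

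Of 15 genes that speak to T cells 7 rose and 3 fell, beside 36.2% and 33.6% of all genes. VSIG4, a complement receptor that restrains T cells, stood at 4.98, 4.95, 5.03 and 5.27 CPM in M0 and at 71.4, 66.6, 62.7 and 63.8 CPM in M0+iMSC, a log2 difference of 3.71 ± 0.29. The ligands of PD-1 parted: PDCD1LG2 rose from 3.05 ± 0.251 to 8.36 ± 0.840 CPM and CD274 fell from 13.3 ± 0.583 to 5.12 ± 0.466 CPM. TNFSF4, the OX40 ligand, rose from 3.29 ± 0.244 to 7.61 ± 0.689 CPM.

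Interferon-stimulated genes depended on which libraries set the spread. In the fit of all 16 libraries 11 of 29 rose and 0 fell (median 1.22), a share of risers close to the 36.2% of all genes. In the fit of the 8 unstimulated libraries 23 rose, and 22 rose when M0+LPS/IFNg replicate 4, which stands apart within its own group, was left out; without M0+iMSC replicates 3 and 4 the count was 7. STAT2, which carries interferon signals to the nucleus, rose from 32.7 ± 1.65 to 82.3 ± 13.2 CPM. IFI35 and EPSTI1 rose from 11.7 ± 0.769 to 26.5 ± 1.41 and from 4.6 ± 0.535 to 16.6 ± 1.79 CPM. The summed level of the list was 318 to 336 CPM in M0 and 650 to 799 CPM in M0+iMSC.

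Genes of antigen presentation rose more often than they fell. Of 17 MHC class I genes 10 rose and 3 fell (median 0.40), with 1 fall when M0 replicate 1, M0 replicate 3 or M0+iMSC replicate 1 was left out or under upper-quartile or total scaling; HLA-F rose from 13.6 ± 0.528 to 56.6 ± 4.01 CPM, and the immunoproteasome subunits PSMB9 and PSMB8 from 7.31 ± 0.733 to 21.7 ± 0.838 and from 77.9 ± 2.15 to 128 ± 2.68 CPM. Of 10 tested MHC class II genes 3 rose and 0 fell in the 16-library fit, where 36.2% of all genes rose. In the 8-library fit 5 rose. HLA-DRA held 4 counts over the M0 libraries and 6 over M0+iMSC, HLA-DPA1 6 and 2, HLA-DPB1 3 and 5 and HLA-DQA1 1 and 1. The class II activator CIITA held 14 and 13, and none of these genes passed. HLA-DRB1 rose from 5.17 ± 0.60 to 18.4 ± 1.71 CPM and HLA-DQB1 from 0.222 ± 0.119 to 3.56 ± 0.960 CPM. CD74, the invariant chain, was at 13.6 ± 0.948 and 33.9 ± 2.61 CPM; its adjusted p was 0.0509 in the 16-library fit and 9.44e-10 in the 8-library fit. HLA genes resemble each other closely, and reads shared between them make single values uncertain.

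Complement genes gave 5 rises and 3 falls of 16, and 2 rises without M0+iMSC replicates 3 and 4. Among all genes 36.2% rose and 33.6% fell. C3, the central component, stood at 659, 640, 608 and 601 CPM in M0 and at 769, 699, 870 and 867 CPM in M0+iMSC (adjusted p = 0.00203), with replicates 3 and 4 the higher; without those replicates it did not pass (adjusted p = 0.0584). C5 rose from 1.55 ± 0.336 to 12.8 ± 0.362 CPM. Of the genes that shield cells from complement, CD46 rose from 121 ± 5.25 to 186 ± 4.35 CPM and CD55 fell from 383 ± 11.7 to 231 ± 21.6 CPM.

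Transcription factors of the macrophage lineage fell more often than they rose, 10 and 5 of 22 (median -0.29), beside 33.6% and 36.2% of all genes. RUNX3 fell from 107 ± 2.36 to 37.6 ± 6.48 CPM. IRF8, a factor of monocyte development, rose from 48.7 ± 1.83 to 126 ± 24.3 CPM and BHLHE41, known from alveolar macrophages that renew themselves, from 347 ± 3.46 to 1026 ± 39.6 CPM. Of 12 tested genes of immature myeloid cells 3 rose and 5 fell, and 3 fell without M0 replicate 1, without M0+iMSC replicate 3 or without either pair. The granule protease gene CTSG rose from 0.834 ± 0.117 to 6.78 ± 1.62 CPM, FLT3, a receptor of progenitors, from 0.367 ± 0.128 to 1.70 ± 0.375 CPM and the growth factor gene CLEC11A from 50.1 ± 3.86 to 109 ± 13.2 CPM, while RNASE2 fell from 12.8 ± 0.842 to 3.18 ± 0.589 CPM. The other fallers were AZU1, RNASE3, CFD and GFI1, at -2.00, -1.89, -1.38 and -0.21 on the log2 scale. The median of the list was -0.43.

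Osteoclasts arise from the same lineage, and of 20 tested genes of their differentiation 6 rose and 10 fell (median -0.53). The shares of all genes were 36.2% and 33.6%. By at least 2-fold 3 rose and 3 fell. TNFRSF11A, the receptor RANK, fell from 29.7 ± 2.48 to 2.06 ± 0.240 CPM, the carbonic anhydrase gene CA2 from 193 ± 6.29 to 55 ± 8.72 CPM and OSTM1, a partner of a lysosomal chloride carrier, from 188 ± 4.63 to 99.5 ± 3.56 CPM. JDP2, an AP-1 family factor needed for bone resorption in mice, rose from 5.80 ± 0.498 to 18.0 ± 1.92 CPM. The other risers were OSCAR, OCSTAMP, CTSK, DCSTAMP and CLCN7, by 1.67, 1.58, 0.68, 0.43 and 0.42 on the log2 scale.

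Genes that cut or protect the matrix moved in both directions. Of 29 tested genes 11 rose and 14 fell, beside 36.2% and 33.6% of all genes. MMP10 and MMP1, which cleave matrix proteins and collagen, fell from 100.5 ± 5.48 to 4.31 ± 1.77 and from 1019 ± 15.3 to 110 ± 40.1 CPM. TIMP1, an inhibitor of such proteases, stood at 3008, 2955, 2785 and 2740 CPM in M0 and at 9475, 9241, 9210 and 9683 CPM in M0+iMSC, and TIMP2 rose from 33.3 ± 1.65 to 76.8 ± 12.6 CPM. ADAM12 and the membrane-bound MMP17 rose from 0.858 ± 0.12 to 6.38 ± 0.789 and from 1.34 ± 0.409 to 5.42 ± 0.827 CPM. Stromal cells also make TIMP1 and TIMP2. Of the mesenchymal markers tested 9 rose and 4 fell, and whether stromal RNA had a part in these rises was not tested.

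Of 26 integrin and adhesion genes 8 rose and 9 fell, near the shares of all genes. The laminin-binding chains ITGA3 and ITGA7 rose from 58.8 ± 2.18 to 234 ± 13.9 and from 11.7 ± 0.591 to 60.0 ± 8.10 CPM, whereas ITGA6, also a laminin-binding chain, and the collagen-binding ITGA2 fell from 420 ± 25.3 to 150 ± 6.42 and from 69.6 ± 3.53 to 10.7 ± 2.67 CPM. Genes of TGF-beta signalling were divided, 6 up and 8 down of 19, beside 36.2% and 33.6% of all genes. The inhibitors SMAD7 and SKIL fell from 171 ± 3.22 to 84.7 ± 3.47 and from 111 ± 2.87 to 53.6 ± 13.4 CPM and the signal carrier SMAD3 from 27.6 ± 1.38 to 19.1 ± 0.882 CPM, while SMAD6, an inhibitor of the BMP branch, rose from 3.73 ± 0.450 to 8.30 ± 1.27 CPM.

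Of 23 tested cholesterol synthesis and uptake genes 14 rose and 3 fell (median 0.47); without M0+iMSC replicate 3 the falls were 6, and without replicates 3 and 4 the counts were 11 and 6. FDFT1, the first enzyme committed to sterols, stood at 105, 105, 102 and 105 CPM in M0 and at 257, 224, 297 and 284 CPM in M0+iMSC, and the later enzymes MSMO1 and TM7SF2 rose from 49.2 ± 1.64 to 155 ± 32.3 and from 0.603 ± 0.163 to 3.70 ± 0.389 CPM. FDPS, an earlier enzyme, rose from 93.3 ± 0.451 to 136 ± 6.83 CPM. Of 22 targets of the lipid receptors LXR and PPAR 6 rose and 10 fell (median -0.28), beside 36.2% and 33.6% of all genes. PLIN2, which coats lipid droplets, stood at 1017, 1053, 1025 and 1028 CPM in M0 and at 182, 181, 189 and 189 CPM in M0+iMSC. The cholesterol exporters parted, ABCA1 falling from 998 ± 14.7 to 354 ± 44.6 CPM and ABCG1 rising from 66.8 ± 2.79 to 192 ± 20.6 CPM. HILPDA, another droplet gene, rose from 1.51 ± 0.361 to 5.92 ± 0.809 CPM.

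Of 23 glycolysis genes 7 rose and 9 fell (median -0.13), near the 36.2% and 33.6% of all genes, and some isoforms went separate ways. The abundant ENO1 and PKM fell from 1093 ± 10.7 to 513 ± 15.9 and from 3824 ± 69.2 to 1933 ± 88.6 CPM. PFKP and ALDOC, a phosphofructokinase and an aldolase, rose from 37.4 ± 1.36 to 135 ± 6.25 and from 2.13 ± 0.449 to 15.1 ± 0.847 CPM. Among 18 tested hypoxia-response genes 5 rose and 7 fell, beside the same shares of all genes. CA12 rose by 2.70 and VEGFA, given above, by 1.00 on the log2 scale. ADM, a vasodilator, the mitophagy receptors BNIP3 and BNIP3L and the histone demethylase KDM3A fell from 30.0 ± 1.49 to 5.25 ± 0.527, from 15.3 ± 0.199 to 3.59 ± 0.557, from 149 ± 5.87 to 57.7 ± 2.45 and from 103 ± 1.98 to 51.9 ± 1.68 CPM.

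Of 26 nuclear respiratory chain genes 10 rose and 4 fell (median 0.05), beside 36.2% and 33.6% of all genes. In this list 2 fell without M0+iMSC replicate 1 or 2, and 1 when libraries were scaled by their totals. COX5B, a subunit of cytochrome oxidase, had the largest difference of the 26, at 88.6, 89.6, 93.2 and 90.9 CPM in M0 and 265, 232, 268 and 276 CPM in M0+iMSC. ATP5F1A, of the ATP synthase, rose from 209 ± 4.07 to 375 ± 22.2 CPM, and COX4I1, also of cytochrome oxidase, from 156 ± 3.45 to 225 ± 12.3 CPM. Of the 13 genes of the mitochondrial genome 5 rose and 2 fell, 4 falling without M0 replicate 3. MT-ND4, MT-ND4L and MT-CO1 rose by 0.53, 0.51 and 0.39 and MT-CYB fell by 0.38 on the log2 scale, beside the higher mitochondrial share of these libraries; MT-ND4 and MT-ND4L overlap.

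Of 15 endoplasmic reticulum chaperone and related genes 11 rose and 3 fell (median 0.52), beside 36.2% and 33.6% of all genes. HSPA5, the main chaperone there, stood at 713, 738, 736 and 741 CPM in M0 and at 1346, 1105, 1630 and 1546 CPM in M0+iMSC. PDIA4, MANF and EDEM1 rose from 44.6 ± 2.07 to 92.4 ± 15.3, from 37.7 ± 1.71 to 64.1 ± 9.31 and from 103 ± 1.73 to 154 ± 8.99 CPM, and CALR, calreticulin, from 568 ± 10.7 to 964 ± 102 CPM. CANX, DNAJB9 and XBP1 fell, at -0.48, -0.43 and -0.37 on the log2 scale. Without M0+iMSC replicates 3 and 4 the rises in this list were 8. Genes of the integrated stress response and amino acid supply gave 9 rises and 7 falls of 22. PPP1R15A, which ends that response, stood at 784, 766, 778 and 792 CPM in M0 and at 211, 215, 197 and 205 CPM in M0+iMSC. The cystine carrier SLC7A11 fell from 383 ± 25.6 to 106 ± 23.2 CPM, and PSPH, of serine synthesis, rose from 5.04 ± 0.518 to 13.8 ± 1.34 CPM.

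Genes that answer oxidative stress and handle iron fell in 8 of 14 tested cases and rose in 3 (median -0.42). TXNRD1, a thioredoxin reductase, fell from 416 ± 12.2 to 181 ± 2.30 CPM, and TFRC, the transferrin receptor, from 588 ± 11.9 to 253 ± 16.8 CPM. GCLM, of glutathione synthesis, rose from 56.0 ± 1.03 to 102 ± 4.71 CPM. Of 32 lysosomal genes 10 rose and 9 fell, beside 36.2% and 33.6% of all genes, and 15 fell in the 8-library fit. The protease gene CTSH and the hydrolase gene PPT1 rose from 197 ± 2.32 to 512 ± 66.5 and from 1932 ± 50.7 to 3010 ± 259 CPM, and TFE3, a factor that drives lysosomal genes, and the channel gene MCOLN1 fell from 131 ± 3.66 to 63.7 ± 6.24 and from 19.4 ± 0.996 to 9.29 ± 0.548 CPM.

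Ribosomal protein genes had no common direction. Of 78, 23 rose and 24 fell, with a median of 0.04, beside 36.2% and 33.6% of all genes. RPL3 and RPL18 rose by 0.59 and 0.55, and RPL7 and RPS26 fell, at -0.46 and -1.17 on the log2 scale. The counts turned with the pair and with the scaling: 35 rose and 11 fell without replicates 1 and 2, 14 rose and 27 fell without replicates 3 and 4, and 40 rose and 9 fell when libraries were scaled by their totals alone.

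**Figure D4:**
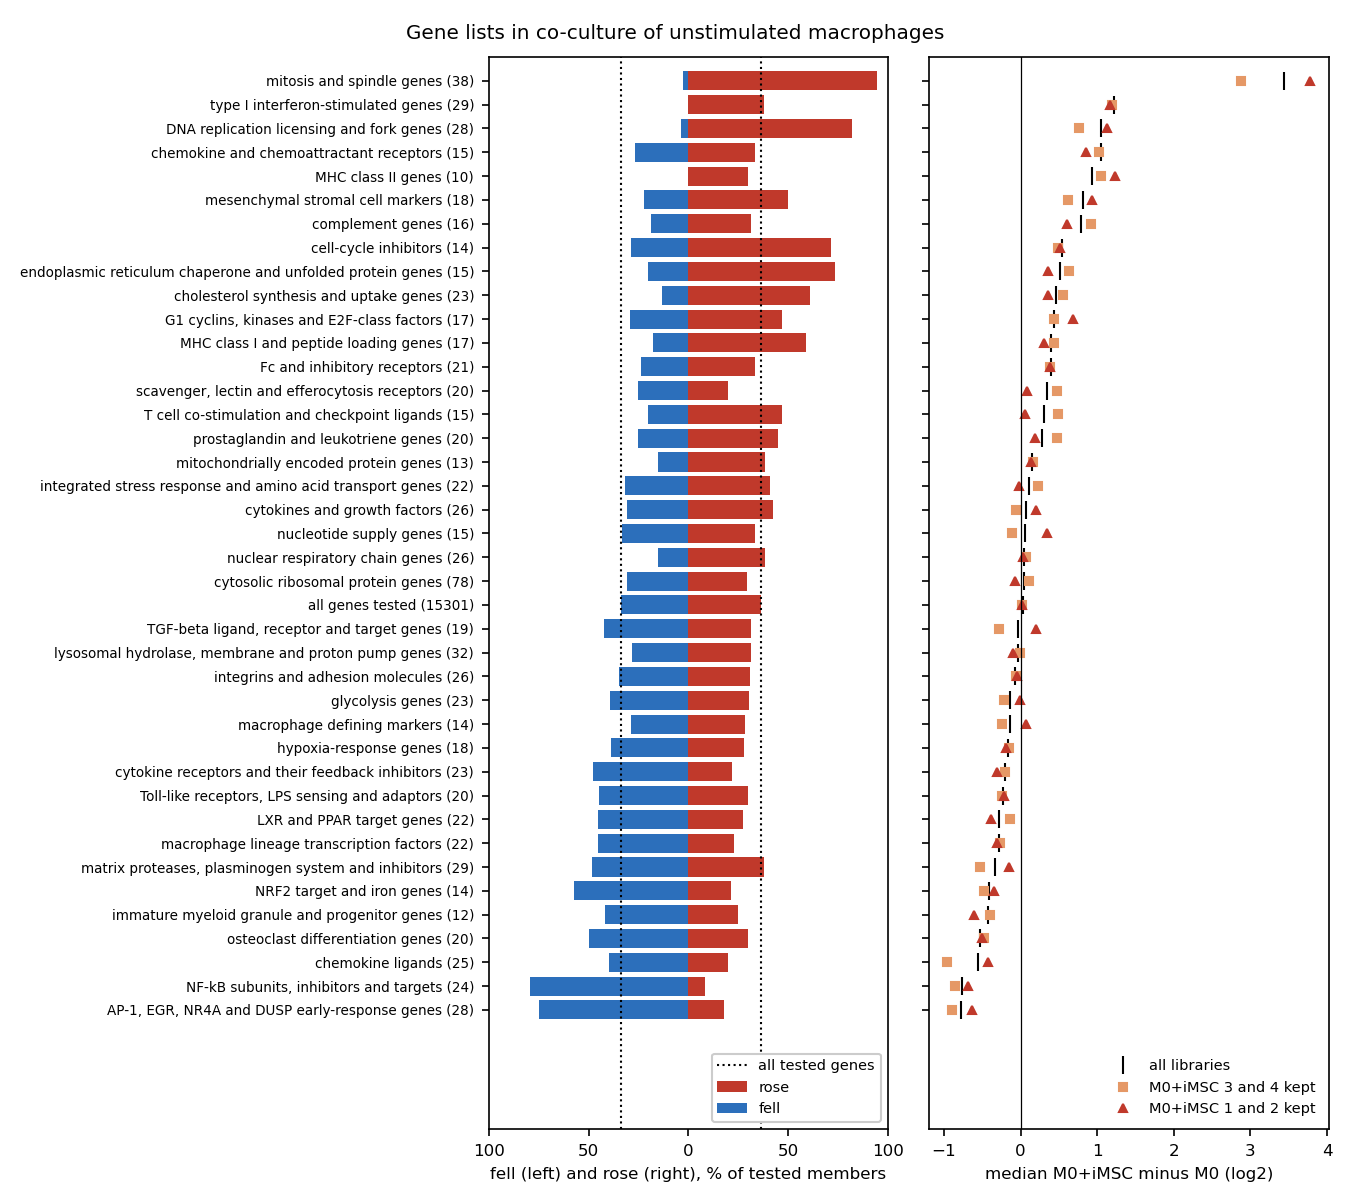
Left, share of tested members that rose (red, to the right) and fell (blue, to the left) in each gene list, with the number tested in brackets and dotted lines at the shares of all tested genes (36.2% and 33.6%). Right, median difference (log2) of each list with all libraries (black tick), with M0+iMSC replicates 3 and 4 kept (squares) and with replicates 1 and 2 kept (triangles); the mitosis list stands highest at 3.43, and the early-response and NF-kB lists lowest at -0.78 and -0.76.

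Both pairs of M0+iMSC libraries were checked gene by gene. Of the 10679 genes called, 9612 were called in the same direction without replicates 1 and 2, 9180 without replicates 3 and 4, and 8494 in both cases. In 3 of the called genes the difference from M0 had opposite signs in the 2 fits. Among all tested genes, called or not, 8 passed in both of these fits with opposite signs. Among 8814 genes with a mean of at least 3 log2 CPM over all 16 libraries, 21 had replicates 1 and 2 each at least 2-fold apart from 3 and 4, but some of these were at or near 0 in the 8 libraries, and the bound was therefore changed after this was seen. Among 8593 genes with a mean of at least 8 CPM over the 8 libraries, 11 had replicates 1 and 2 each at least 2-fold apart from 3 and 4. Of these, 9 were higher in replicates 1 and 2. SERPINA9 and PTGER3 are given above. CCL2, a monocyte attractant, stood at 25.6 ± 1.12 CPM in M0 and at 80.9, 73.3, 33.6 and 26.8 CPM in M0+iMSC, so that its rise of 1.07 (adjusted p = 0.00841) became 0.24 (adjusted p = 0.327) without replicates 1 and 2. MMP8, a collagenase, fell from 588 ± 5.67 CPM to 152, 165, 53.1 and 46.0 CPM. DAZL, a germ-cell RNA-binding gene, rose from 3.78 ± 0.512 CPM to 15.2, 20.6, 6.67 and 6.96 CPM. BMP2, a bone morphogenetic protein, fell from 28.1 ± 1.05 CPM to 16.7, 18.2, 7.23 and 6.07 CPM, a fall that did not pass without replicates 3 and 4 (adjusted p = 0.182). P3H2, of collagen modification, fell from 243 ± 3.55 CPM to 83.1, 123, 40.5 and 37.6 CPM, and NRP2, a semaphorin receptor, from 26.2 ± 0.828 CPM to 14.9, 14.6, 6.37 and 6.53 CPM. SERPINB7 stood at 21.8, 30.5, 9.85 and 8.62 CPM around an M0 mean of 18.6 CPM and did not pass. LINC00659 and CYP27A1 were higher in replicates 3 and 4, CYP27A1 without passing. No label accounts for the pairs, and their cause was not tested.

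Co-culture had a partly different outcome once LPS and IFNg were present. The comparison of M0+LPS/IFNg+iMSC with M0+LPS/IFNg shares no library with that of M0+iMSC with M0. There 5875 genes (38.4%) were higher and 5555 (36.3%) lower in co-culture, and the co-culture effect differed between the 2 settings in 9506 genes (62.1%) by the interaction test. Of the genes that rose in unstimulated co-culture, 3191 (57.6%) also rose in stimulated co-culture, which is 54.3% of the rises there, and 1163 (21%) fell. Of those that fell, 2981 (58%) fell again, 53.7% of the falls there, and 941 (18.3%) rose.

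In a panel of 14 genes, 12 differed by the interaction test. TNF rose by 1.15 ± 0.20 in unstimulated co-culture and fell by 5.09 on the log2 scale in stimulated co-culture. CCL1 rose by 5.17 ± 0.38 and fell by 1.21 in the same settings. GJB2 rose by 5.15 ± 0.21, against 0.08 ± 0.18 with stimulation, which did not pass. SERPINA9 stood at 7.25 ± 0.47 and 2.04 ± 0.91, the latter not passing. MKI67 rose in both settings, by 4.83 ± 0.28 and 6.88 ± 0.31. CXCL8, IL6 and MMP10 fell further with stimulation, at -2.94, -4.75 and -8.98, than without it, at -1.34, -2.20 and -4.56. NEK10, TNFRSF11A and EDN1 fell less with it, at -2.72, -2.35 and -3.27, than without it, at -5.35, -3.85 and -4.59. CD163 fell by 3.53 without stimulation and stood at -0.13 ± 0.67 with it. For MARCO (6.52 ± 0.18 and 4.80 ± 0.37) and PTGS2 (-4.40 ± 0.45 and -5.36 ± 0.47) the interaction did not pass, with adjusted p of 0.171 and 0.152. The interaction of CD163 and of EDN1 did not pass without M0+iMSC replicates 3 and 4 (adjusted p = 0.0855 and 0.122), and that of SERPINA9 did not pass without M0+LPS/IFNg replicate 4 (adjusted p = 0.0647); that of PTGS2 passed in either case (adjusted p = 0.0431 and 0.0129).

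**Figure D5:**
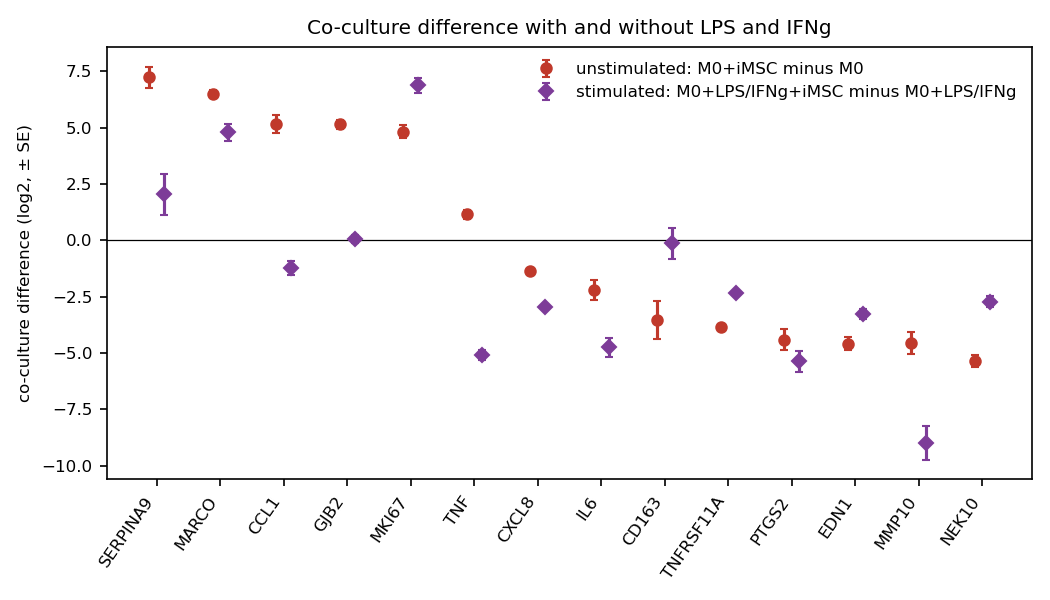
Co-culture difference (log2 ± SE, vertical axis) of 14 genes without stimulation (red circles, M0+iMSC minus M0) and with LPS and IFNg (purple diamonds, M0+LPS/IFNg+iMSC minus M0+LPS/IFNg), 4 libraries in each group. TNF and CCL1 lie above 0 without stimulation and below 0 with it, and MARCO and MKI67 lie above 0 in both.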

How the data were processed

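RNA of THP-1 macrophages was sequenced in 16 libraries with VAHTS Universal V6 reagents, as the labels' protocols state. What the authors deposited is a table of raw gene counts in whole numbers; the aligner HISAT2, HTSeq and the build GRCh38 are named in the submitters' processing notes, with no roles or versions. The handling of strand and of shared or overlapping reads is not stated. Of 200 genes tabulated for naming, 118 share their span with another annotated gene and 45 with a coding one, so their values are uncertain.

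The analysis used edgeR 4.0.16 under R 4.3.3. Genes passing filterByExpr over all 16 libraries, some at or near 0 in the 8 compared here (CXCL9 at 0 counts), entered 1 robust quasi-likelihood fit of all 4 groups with TMM factors, 12 residual degrees of freedom and no block, and p-values were adjusted by Benjamini-Hochberg over all 15301 genes with a threshold of 0.05. Every adjusted p printed comes from this edgeR fit or, where libraries or settings are named, from the same fit with that change. CPM carry the SD of 4 libraries. The SE is the absolute log2 difference over the square root of F.

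Alternatives were other scaling, filters and tools (DESeq2 1.42.0, limma 3.58.1), the 8 libraries alone, a replicate block and libraries left out. The comparison and the 40 gene lists (913 genes, 839 tested), which share members, were chosen with earlier results of these data known. The text names the 15 genes that rose most and the 15 that fell most (adjusted p under 0.05, mean of at least 3 log2 CPM over all 16 libraries, which TLR8 passed through the stimulated ones, no overlap of groups), up to 4 genes of smallest p per list, and a panel of 14 for the interaction. Some genes that this rule takes are not reported here. Genes named beyond that were chosen after their values were seen: GINS3, MCM2 to MCM7, BUB3, KIF4A, NDC80, PRC1, CDKN2A, CDKN2B, REL, TNFAIP3, TLR2, TLR4, TLR7, MYD88, DUSP2, NR4A1, CXCL5, CXCL12, CCL22, TNFSF10, OSM, STAB1, MMP1, CD68, PDGFRA, COL1A1, the markers given at or near 0 counts, and the genes by which the pairs of M0+iMSC libraries differ. So were HLA-DRA, HLA-DPA1, HLA-DPB1, HLA-DQA1, CIITA, CSF3R, IL10RA, CISH, IL1R2, TWIST1, FBN1, SFRP1, PDGFRB, CANX, DNAJB9, XBP1, CA12, OSCAR, OCSTAMP, CTSK, DCSTAMP, CLCN7, AZU1, RNASE3, CFD and GFI1. These genes were not among the 200 tabulated for naming. Promoters are RefSeq windows of 250 bases before to 50 after a start, and a gene counts as holding a motif if any of its windows does. Replicate numbers did not pair the libraries. Figures were drawn with matplotlib 3.10.9.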

Additional observations from a re-analysis of the deposited data

Results flagged for a closer look

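In 17 of 400 groups of 4 libraries tested for 200 named genes, a single library lay apart from the other 3; chance flags about 1 in 20 groups. In M0+iMSC these were MARCO (36.6 CPM in replicate 1), GJB2 (119 CPM in replicate 2), ORC6 (4.45 CPM in replicate 4), PRRX1 (69.6 CPM in replicate 1) and TNFAIP3 (285 CPM in replicate 4). In M0 they were GUCY1A2 (23.8 CPM in replicate 4), LYPLAL1-AS1 (22.6 CPM in replicate 3), ABCG1 (71 CPM in replicate 2), CD14 (132 CPM in replicate 1), CTSH (194 CPM in replicate 3) and DUSP10 (242 CPM in replicate 2). Also in M0 were FDFT1 (102 CPM in replicate 3), IFI35 (12.9 CPM in replicate 3), IFNAR1 (237 CPM in replicate 3), MCOLN1 (20.9 CPM in replicate 1), OLR1 (61.8 CPM in replicate 1) and SMAD3 (29.7 CPM in replicate 1).

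The co-culture difference changed with stimulation by the interaction test in 12 of 14 panel genes, given here as log2 of the stimulated difference minus the unstimulated one. It was larger or less negative with stimulation for MKI67 (2.05), CD163 (3.39), TNFRSF11A (1.5), EDN1 (1.32) and NEK10 (2.63). It was smaller or more negative for CCL1 (-6.38), GJB2 (-5.07), CXCL8 (-1.60), IL6 (-2.54), TNF (-6.24), MMP10 (-4.42) and SERPINA9 (-5.21).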

How the results depend on the processing

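The number of genes called stayed between 9198 and 11612 under the alternatives run, that of genes changed at least 2-fold between 2818 and 5296, and that of genes whose co-culture effect differs under stimulation between 8804 and 10338. With the replicate number as a block these were 10583, 4051 and 9395; numbers did not pair the libraries (r between -0.0687 and 0.00389). Scaling by library totals gave 6537 higher and 4095 lower genes. For named genes and interactions, 54 of 4196 values under an alternative changed their side of the threshold, 45 losing and 9 gaining the call, and 0 turned direction. The losses fall on TNFAIP3, STAB1, NR4A1, SALL4, DNMT3B and C3 and on the interactions of CD163, EDN1 and SERPINA9, and the gains on CD74 and the PTGS2 interaction. Of 1600 list counts 76 moved by over 1.5 times, many of them counts of 5 or fewer. Shifts on leaving out a single M0 or M0+iMSC library are given with their lists. Others were falls of co-stimulation genes (3, then 5 or 6 in the 8-library fit or without M0+LPS/IFNg replicate 4), of scavenger receptors (5, then 2 with DESeq2 and 3 without M0+iMSC replicates 1 and 2), of G1 genes (5, then 3 without replicates 3 and 4 or with library totals), of nucleotide genes (5, then 3 with library totals) and of macrophage markers (4, then 2 without replicates 3 and 4), and rises of chemokines (5, then 3) and early-response genes (5, then 3) without replicates 1 and 2 and of complement genes (5, then 3 with limma-voom). The causes were not tested. Genes under about 1 CPM rest on few counts, and the depth limits what can be said of them.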
